A study of Mus musculus with 12 samples.

Results

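The FOS, JUN and EGR genes are immediate-early genes, read here in mouse male germ cells with and without Zmym3, a gene of the X chromosome that encodes a zinc finger protein. The 10 genes Fos, Fosb, Fosl1, Fosl2, Jun, Junb, Jund, Egr1, Egr2 and Egr3 were taken by symbol, whatever their values, from the 22293 symbols that occur once in each of 12 RNA-seq libraries, and 10 of 10 were found. WT and KO males of the mixed strain CBA/C57 were the source of every library, and the KO had been made with CRISPR-Cas9 in zygotes as small frame-shifting deletions. Spermatogonial stem cells (SSCs) cultured on laminin without RA gave 2 libraries from WT and 2 from KO. SSCs exposed to 100 nM retinoic acid (RA) for 36 h, which turns them into c-KIT+ cells on the way to meiosis, gave another 2 libraries from each genotype. The labels give the source mice of these 8 libraries as 2 months old, whereas the methods derive SSC lines from either pups or adult males, and which deletion allele a library carries is not given in the sources used here. Spermatocytes were sorted from testis as large tetraploid cells, mainly pachytene, with 1 library per genotype from 5-month-old and 1 from 7-month-old mice, so that genotype can be tested only over both ages together. The labels give these ages, whereas the methods for spermatocyte isolation give a single age between them. No source used here gives separate cultures for the replicates, so each p-value reflects only how far the replicate libraries differed, and that spread may be technical.

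Immediate-early genes are the first genes that cells transcribe after a growth factor or stress signal, and they need no new protein for it. FOS proteins pair with JUN proteins through leucine zippers to form the transcription factor AP-1, which binds the sequence TGACTCA or TGAGTCA, while EGR proteins bind GC-rich sites through zinc fingers. MAP kinase signals reach many of these genes through serum response factor (SRF), which binds the CArG box, and in cultured SSCs the growth factors GDNF and FGF2 act through such kinases. JUND differs from the rest in that resting cells usually make it steadily.

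The promoters of Egr2 and Fos are shown because these genes moved in opposite directions in c-KIT+ cells. RefSeq sequences of GRCm38.p6, a later build than the mm9 of the expression values, were at hand for 7 of the 10 genes (Fos, Fosb, Fosl2, Jun, Junb, Jund and Egr2). Each line gives the 250 bases before an annotated start on the plus strand, with capitals for a CArG box in Egr2 and for TATAAA in Fos.
Egr2, chr10:67537619-67537868: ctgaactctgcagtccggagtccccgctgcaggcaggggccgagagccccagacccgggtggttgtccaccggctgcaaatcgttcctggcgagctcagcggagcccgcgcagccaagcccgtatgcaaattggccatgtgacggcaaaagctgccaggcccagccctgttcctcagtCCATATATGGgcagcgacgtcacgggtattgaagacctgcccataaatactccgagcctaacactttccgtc
Egr2, chr10:67537316-67537565: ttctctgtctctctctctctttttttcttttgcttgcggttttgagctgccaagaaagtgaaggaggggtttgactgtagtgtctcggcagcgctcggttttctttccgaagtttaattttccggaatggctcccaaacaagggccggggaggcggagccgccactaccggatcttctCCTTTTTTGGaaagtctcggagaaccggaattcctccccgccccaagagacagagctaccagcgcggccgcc
Fos, chr12:85473640-85473889: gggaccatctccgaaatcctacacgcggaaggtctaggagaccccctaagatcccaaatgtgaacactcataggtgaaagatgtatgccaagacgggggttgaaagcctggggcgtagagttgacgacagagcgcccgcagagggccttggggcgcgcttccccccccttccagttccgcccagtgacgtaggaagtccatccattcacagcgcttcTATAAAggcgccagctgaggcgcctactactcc

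Windows from 250 bases before to 50 bases after each start were searched on both strands for 5 motifs. Sequence further upstream was not searched, so a motif not found in a window may still lie near that gene. Whether the motifs relate to the direction of a gene's change was not tested. The CArG box was found in 4 of the 5 Egr2 windows, against 1.63% of all 32851 windows, and 3 of those 4 windows overlap and hold the same box. The motif TATAAA was found in the Fos window, 33 bases before the start, and in the Junb window at the start itself, against 13.6% of all windows. The EGR motif GCGNGGGCG was found in the Fosb and Fosl2 windows, against 5.55% of all windows. TGACGTCA (1.79% of all windows) and the AP-1 motif (5.2%) were found in none of the members' windows, and Jun and Jund held none of the 5 motifs. In mm9, which the expression files use, Egr2 lies on chromosome 10 from 67000617 to 67004936 and Fos on chromosome 12 from 86814851 to 86818219.

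Zmym3 was at 37.4 and 40.2 FPKM in WT SSCs and at 9.19 and 9.76 FPKM in KO SSCs, where FPKM give sequenced fragments after scaling for a transcript's length and for depth. In spermatocytes it was low in both genotypes, at 0.412 and 0.460 FPKM in WT and 0.146 and 0.340 FPKM in KO, and the KO library at 7 months held 24 fragments against 32 and 34 in WT, so that it checks that label only weakly. The summed level of 6 SSC markers was 287 to 326 FPKM in SSCs and 134 to 163 FPKM in c-KIT+ cells, that of 4 markers of differentiating cells 4.92 to 7.66 and 611 to 694 FPKM, and that of 8 spermatocyte markers was 3894 to 4066 FPKM in spermatocytes. Depth relative to the 5-month WT spermatocytes lay between 0.913 and 1.22, and the libraries of a group correlated with r between 0.9958 and 0.9971. A single small RNA gene, Mir3064, took 8.8% of all FPKM in WT SSC replicate 1.

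**Figure D1:**
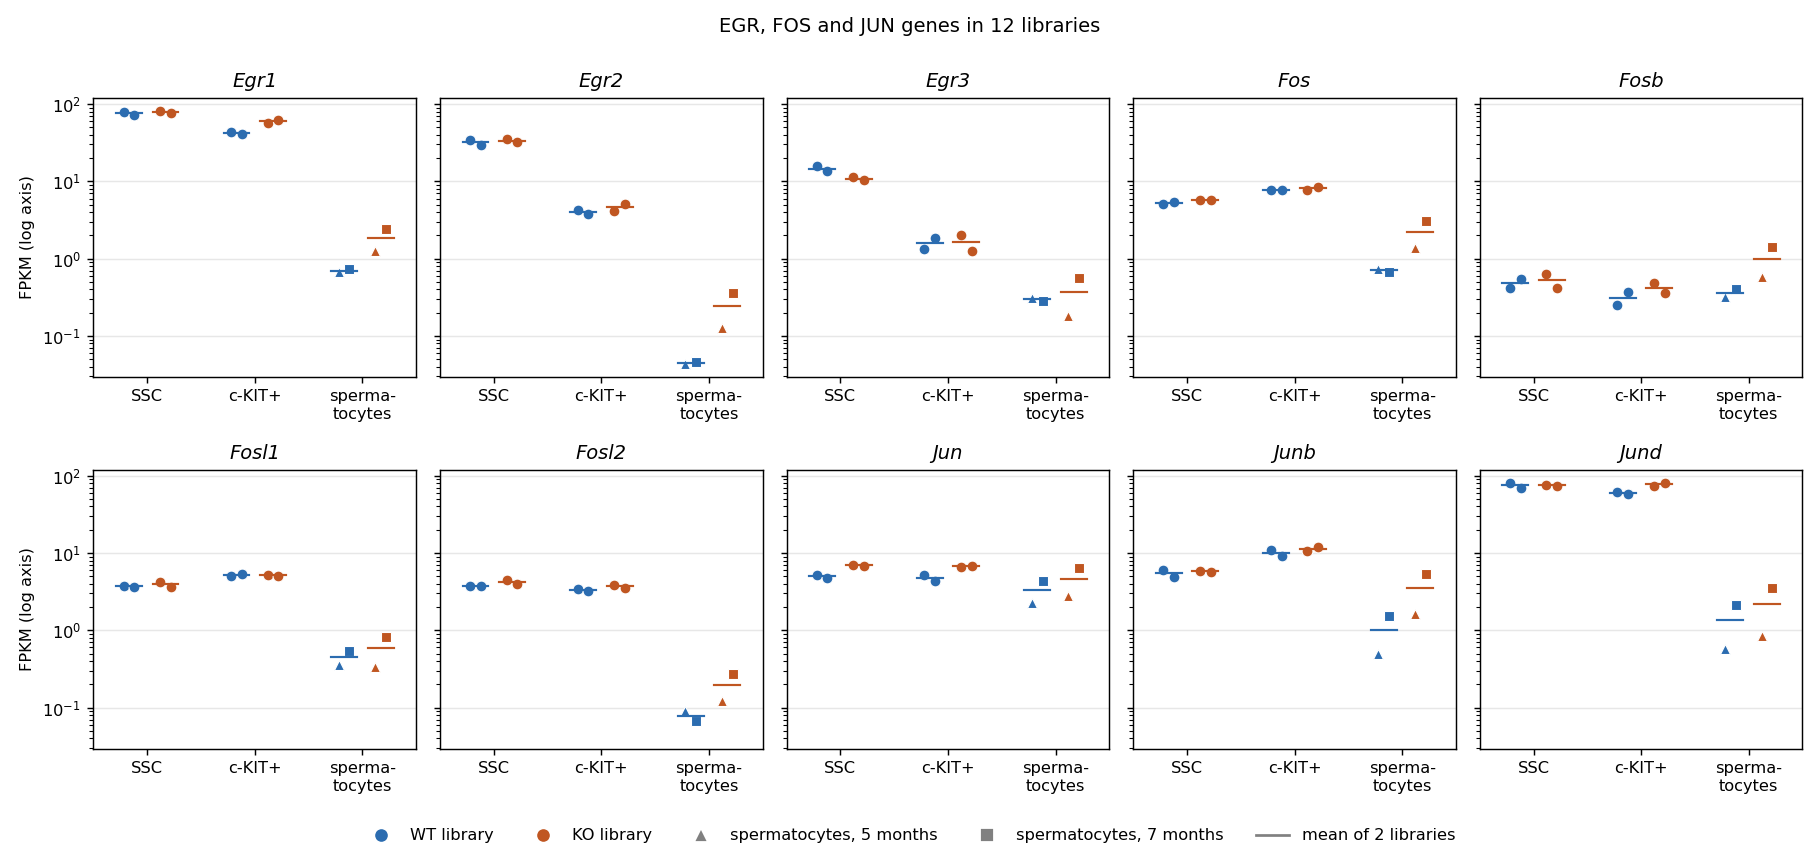
FPKM (log axis) of the 10 genes in SSCs, c-KIT+ cells and spermatocytes, 1 point per library, WT in blue and KO in orange, with lines for the mean of 2 libraries and triangles and squares for spermatocytes at 5 and 7 months. Egr1 and Jund sit near 80 FPKM in SSCs, Egr2 and Egr3 step down in c-KIT+ cells, and Jun alone stays above 2 FPKM in all 4 spermatocyte libraries.

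The first comparison asks what RA induction did to the 10 genes. All 3 EGR genes were lower in c-KIT+ cells than in SSCs in both genotypes, whereas Fos, Fosl1 and Junb were higher, and Fosl2, Jun and Jund were not called. limma was run on log2 of FPKM + 1 for genes that reached 1 FPKM in 2 or more of the 8 libraries, and genes with an adjusted p under 0.01 were called. Fosb, at no more than 0.641 FPKM, did not reach that level, which left 9 of the 10. In WT, 3 of the 9 were called higher, where 24.9% of all 11981 genes tested were, and 3 lower, where 15.9% were. The KO gave the same 3 and 3, where 24.6% of all genes were called higher and 16.0% lower. Median log2 fold changes of the 9 genes were -0.12 in WT and -0.03 in KO, beside 0.08 and 0.07 over all genes. A bulk library cannot tell fewer cells that make an RNA from less of it in each cell.

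Egr2, a zinc finger factor best known for Schwann cell myelination and hindbrain patterning, changed most on the log2(FPKM + 1) scale, although the plain ratio of WT means was 8.06 for Egr2 and 9.18 for Egr3. Its level was 34.5 and 30.0 FPKM in WT SSCs, 35.4 and 32.0 in KO SSCs, 4.21 and 3.79 in WT c-KIT+ cells and 4.17 and 5.07 FPKM in KO c-KIT+ cells. Every SSC library was thus several times above every c-KIT+ library. The log2 fold change was -2.73 in WT (SE 0.10, adjusted p = 3.49e-07, limma) and -2.63 in KO (SE 0.10, adjusted p = 4.68e-07), and it ranked 7th of the 11981 genes by absolute change in WT. Egr3, which is induced with Egr2 in activated lymphocytes, went from 15.7 and 13.5 FPKM in WT SSCs to 1.31 and 1.88 FPKM in WT c-KIT+ cells. Its KO libraries were at 11.4 and 10.4 FPKM in SSCs and at 2.02 and 1.27 FPKM in c-KIT+ cells, again without overlap. The log2 fold change of Egr3 was -2.60 in WT (SE 0.15, adjusted p = 3.84e-06) and -2.18 in KO (SE 0.15, adjusted p = 9.56e-06).

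Egr1, the prototype of its family, fell far less and stayed among the most abundant of the 10. It was at 80.1 and 72.2 FPKM in WT SSCs and 80.8 and 76.7 FPKM in KO SSCs, where the genotypes overlapped. In c-KIT+ cells it was at 43.9 and 41.3 FPKM in WT and at 56.5 and 62.8 FPKM in KO, so that the KO libraries lay between WT c-KIT+ cells and SSCs. The log2 fold change was -0.82 in WT (SE 0.07, adjusted p = 2.74e-05) and -0.40 in KO (SE 0.07, adjusted p = 0.00142). In KO the call was lost without KO SSC replicate 1 (log2 fold change -0.36, adjusted p = 0.0134).

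Among the FOS genes the changes were small. Fos, the classical partner of JUN, was at 5.10 and 5.33 FPKM in WT SSCs, 5.80 and 5.76 in KO SSCs, 7.70 and 7.79 in WT c-KIT+ cells and 7.75 and 8.47 FPKM in KO c-KIT+ cells. All c-KIT+ libraries lay above all SSC libraries, and the log2 fold change was 0.49 in WT (SE 0.06, adjusted p = 0.000275) and 0.42 in KO (SE 0.06, adjusted p = 0.000617). Fosl1, which encodes FRA-1, a FOS relative without the transactivation domain, was at 3.78 and 3.61 FPKM in WT SSCs and at 5.10 and 5.32 FPKM in WT c-KIT+ cells. In KO it was at 4.22 and 3.65 FPKM in SSCs and 5.20 and 5.06 FPKM in c-KIT+ cells. The log2 fold change of Fosl1, 0.40 in WT (SE 0.08, adjusted p = 0.0021), was called, as was that of 0.32 in KO (SE 0.08, adjusted p = 0.00721). Of these calls, the one in WT was lost without WT SSC replicate 2 (adjusted p = 0.0149), WT c-KIT+ replicate 1 (0.0107) or WT c-KIT+ replicate 2 (0.0179), and the one in KO under 13 of the alternatives, with an adjusted p of up to 0.0576 without KO SSC replicate 2. Without the other libraries that ended it, the adjusted p in KO was 0.0336 and 0.0236 without KO c-KIT+ replicates 1 and 2, 0.0109 and 0.0108 without WT SSC replicates 1 and 2, and 0.0132 and 0.0131 without WT c-KIT+ replicates 1 and 2.

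Fosl2, which encodes FRA-2, was at 3.71 to 4.48 FPKM in SSCs and 3.26 to 3.82 FPKM in c-KIT+ cells, and its log2 fold changes of -0.12 in WT (adjusted p = 0.198) and -0.15 in KO (adjusted p = 0.129) were not called. Fosb, whose product gathers in neurons under repeated stimulation, was at 0.417 to 0.641 FPKM in SSCs and 0.249 to 0.480 FPKM in c-KIT+ cells, ranges that overlap. It rested on 23 to 62 fragments per library and was not tested.

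Junb, which counters JUN at some target genes, was the JUN gene that rose. It went from 6.05 and 4.84 FPKM in WT SSCs to 10.9 and 9.12 FPKM in WT c-KIT+ cells, and from 5.89 and 5.68 to 10.7 and 12.1 FPKM in KO. The log2 fold change was 0.78 in WT (SE 0.11, adjusted p = 0.000489) and 0.87 in KO (SE 0.11, adjusted p = 0.000267), the largest increase among the 9 genes tested in each genotype. Jun, the founding JUN gene, was at 5.25 and 4.73 FPKM in WT SSCs and 5.26 and 4.34 FPKM in WT c-KIT+ cells. The log2 fold changes of Jun were -0.05 in WT (95% interval -0.25 to 0.15) and -0.03 in KO (95% interval -0.23 to 0.17), neither of them called. Jund went from 81.7 and 68.5 to 62.0 and 58.0 FPKM in WT, and was at 76.1 and 73.5 FPKM in KO SSCs and 74.4 and 80.3 FPKM in KO c-KIT+ cells. In WT its log2 fold change of -0.31 (SE 0.08) missed the threshold with an adjusted p of 0.0104 and passed it without WT SSC replicate 2 (-0.44, adjusted p = 0.00189), while it shrank to -0.19 without WT SSC replicate 1. Jund was also called with a filter at 5 FPKM (adjusted p = 0.00987), quantile normalization (0.00831) and median-ratio scaling (0.00108). In KO the log2 fold change of Jund was 0.05 (SE 0.08, adjusted p = 0.642).

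**Figure D2:**
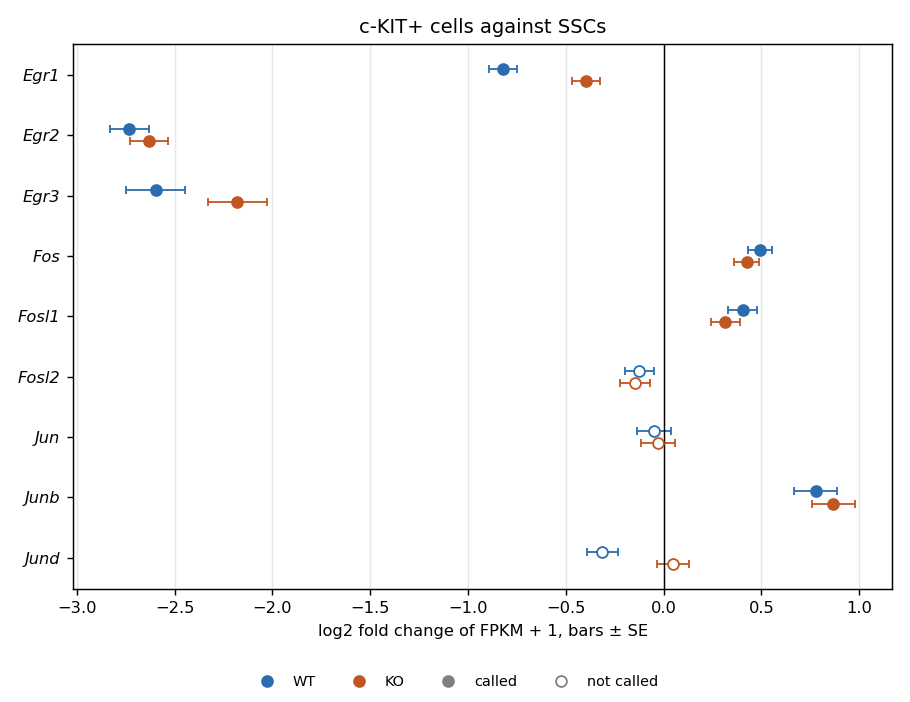
Log2 fold change (FPKM + 1) of c-KIT+ cells against SSCs in WT (blue) and KO (orange), with bars of 1 SE and filled points for called genes. Egr2 lies at -2.73 and -2.63 and Junb at 0.78 and 0.87. Egr1, Egr3 and Jund show the largest shifts to the right in KO against WT, and no difference of the RA effect between genotypes was called.

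Whether RA acted differently in the KO was tested as the interaction, and none of the 9 genes was called (limma, adjusted p under 0.01). Of all genes tested 0 were called, and 865 of 11981 had an unadjusted p under 0.05. Among the members 2 of 9 had one, beside 7.22% of all genes. The limma fit gave Egr1 a difference of 0.42 between the log2 fold changes (KO minus WT, SE 0.10, adjusted p = 0.314), and Jund one of 0.36 (SE 0.11, adjusted p = 0.518). Egr3 had a difference of nearly the same size, 0.42, with an SE of 0.21 (adjusted p = 0.725). Leaving out 1 library moved the difference of Egr3 between 0.21 and 0.62 and that of Jund between 0.24 and 0.49. For the other 6 genes the differences lay between -0.09 and 0.10.

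The KO comparison within each cell state asks what the loss of Zmym3 did to the same genes. In SSCs none of the 9 genes was called (limma, adjusted p under 0.01), where 4.9% of all genes were. An unadjusted p under 0.05 was found for 2 of 9, beside 28.3% of all genes. Jun was at 7.03 and 6.78 FPKM in KO SSCs, above the 5.25 and 4.73 FPKM of WT, which is 0.40 on the log2 scale (SE 0.09, adjusted p = 0.0202). Egr3 was at 11.4 and 10.4 FPKM in KO against 15.7 and 13.5 FPKM in WT, which is -0.39 on the log2 scale (SE 0.15, adjusted p = 0.127). Neither passed the threshold, although the libraries of the genotypes did not overlap. The genotypes were also apart for Fos and Fosl2, higher in KO, so that KO lay above WT for 3 of the 10 genes and below it for 1. Of all genes tested, 30.1% had both KO libraries above both WT libraries and 27.4% both below.

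In c-KIT+ cells Egr1 was called higher in KO, the only one of the 9 genes, where 1.11% of all genes were called higher. With 56.5 and 62.8 FPKM in KO against 43.9 and 41.3 FPKM in WT, it differed by 0.47 on the log2 scale (SE 0.07, adjusted p = 0.00539). This call was lost without WT c-KIT+ replicate 1 (adjusted p = 0.0300), WT c-KIT+ replicate 2 (0.0516), KO c-KIT+ replicate 2 (0.0317), KO SSC replicate 1 (0.0114) or KO SSC replicate 2 (0.0113), with log2 fold changes between 0.40 and 0.52. Jun was again higher in KO, at 6.62 and 6.85 against 5.26 and 4.34 FPKM, a difference of 0.42 on the log2 scale (SE 0.09, adjusted p = 0.0246). Jund, at 74.4 and 80.3 against 62.0 and 58.0 FPKM, differed by 0.36 on the log2 scale (SE 0.08, adjusted p = 0.0335). KO lay above WT without overlap for Egr1, Fosl2, Jun and Jund, 4 of the 10 genes, where 26.8% of all genes did so. The remaining genes had log2 fold changes between -0.02 and 0.17.

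Other measures moved with genotype in these cultures. The summed level of 7 fibroblast and feeder markers was 72.2 to 74.9 FPKM in the 4 WT libraries and 48.5 to 50.6 FPKM in the 4 KO libraries, with no marker at 0. That of 5 heat shock and stress genes, which respond to handling as immediate-early genes do, was 136 to 138 FPKM in WT SSCs and 152 FPKM in both KO SSC libraries, and 117 to 122 FPKM in WT c-KIT+ cells and 136 to 144 FPKM in KO c-KIT+ cells, with none at 0. Sums of cell state markers differed as well. The SSC markers summed to 307 to 326 FPKM in WT SSCs and 287 to 293 FPKM in KO SSCs, and to 155 to 163 and 134 to 145 FPKM in WT and KO c-KIT+ cells. The markers of differentiating cells summed to 670 to 694 FPKM in WT and 611 to 658 FPKM in KO c-KIT+ cells. Stra8 made up most of that sum, at 627 and 608 FPKM in WT and 556 and 603 FPKM in KO. For KO in c-KIT+ cells, 0 of these 4 markers had a log2 fold change above 0. The spermatocyte markers summed to 122 to 126 FPKM in WT and 141 to 153 FPKM in KO SSCs, and to 202 to 206 and 215 to 225 FPKM in WT and KO c-KIT+ cells. Not every marker moved with its sum. For KO in SSCs, 2 of the 6 SSC markers and 4 of 7 spermatocyte markers tested had log2 fold changes above 0. Of the 5 heat shock and stress genes 4 did. In c-KIT+ cells the counts for the same lists were 1, 4 and 4. The part of these markers in the genotype differences was not tested.

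The make-up of each family was compared next, as the share of each gene in the summed FPKM of its family within a library, which no scaling of libraries can move. Over both genotypes, 9 of the 10 genes had shares that did not overlap between the 4 SSC and the 4 c-KIT+ libraries, each with the smallest p that 4 against 4 allows (exact two-sided permutation test, p = 0.0286, adjusted p = 0.0317 over the 10 genes). Shares exist only within these families, and as a background the FPKM of 54.0% of all genes tested did not overlap between the same libraries. Egr1 rose from 62.9% to 89.4% of the summed FPKM of Egr1, Egr2 and Egr3 (means of 4). Egr2 dropped from 26.7% to 7.64% and Egr3 from 10.4% to 2.93%. Egr4 is not among the 10 genes and was left out of that sum, so these are not shares of all EGR transcripts. It was at 55.1 FPKM in WT and 50.6 FPKM in KO SSCs, and at 22.0 and 21.2 FPKM in c-KIT+ cells (means of 2), above Egr2 and Egr3. In the JUN family Junb went from 6.48% to 12.7% and Jund from 86.6% to 80.6%, and Jun stayed at 6.87% and 6.73% (exact permutation test, p = 0.886). Within the FOS family Fos went from 39.9% to 46.7% and Fosl1 from 27.7% to 30.5%, and Fosl2 went from 28.7% to 20.7% and Fosb from 3.66% to 2.14%. Fosb rested on only 23 to 62 fragments per library, and its nearest shares were 3.03% in SSCs and 2.78% in c-KIT+ cells. Shares of a family add up to 1 whole, so these tests are not independent. The permutations ignored genotype and treated all libraries as independent samples. Replicates may be technical, so these p-values do not stand for separate cultures. Leaving out 1 library at a time kept 7 to 9 genes under an adjusted p of 0.05. The sums were 116 to 130 FPKM for EGR without Egr4 in SSCs and 47.0 to 69.1 FPKM in c-KIT+ cells. They were 78.1 to 93.0 and 71.5 to 99.3 FPKM for JUN, and 13.0 to 15.1 and 16.5 to 17.5 FPKM for FOS.

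**Figure D3:**
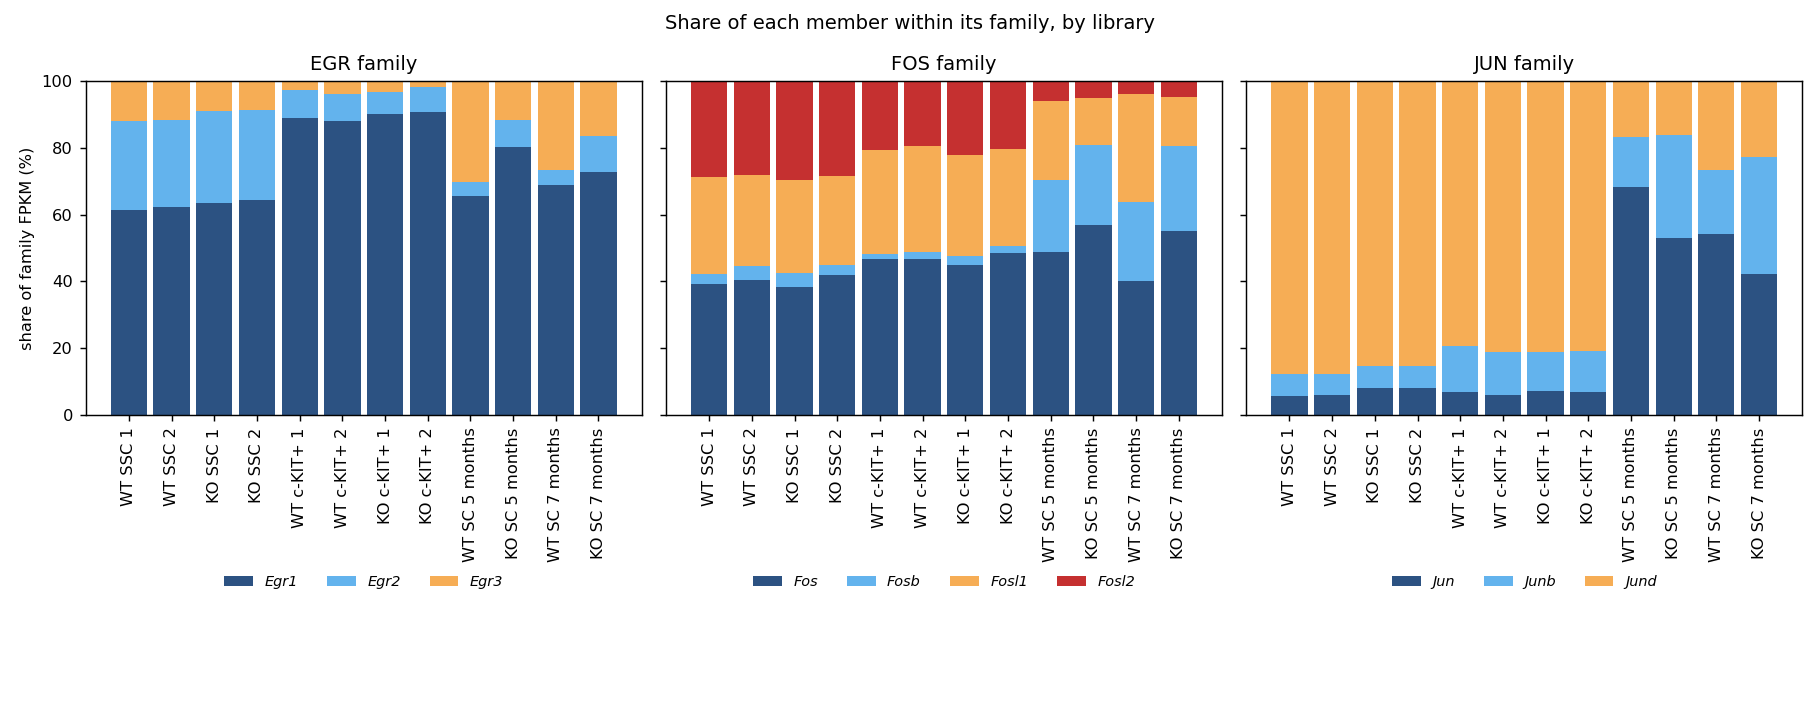
Share of each gene in the summed FPKM (percent) of the EGR, FOS and JUN families, 1 bar per library (SC, spermatocytes). The EGR sum leaves out Egr4, and Egr1 makes up 61.5% to 64.4% of it in SSCs and 87.9% to 90.8% in c-KIT+ cells. Jund makes up at least 79.3% of the JUN sum in cultured cells but at most 26.5% in spermatocytes.

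FPKM are scaled to length, so levels can be ordered between genes. In SSCs the median over the 4 libraries was highest for Egr1 (78.4 FPKM), followed by Jund (74.8), whose ranges overlapped, then Egr2 (33.2) and Egr3 (12.5), each apart from its neighbours. Jun, Junb and Fos followed at 6.02, 5.78 and 5.55 FPKM with overlapping ranges, then Fosl2 (3.84) and Fosl1 (3.71), which overlapped, and Fosb (0.484). In c-KIT+ cells Jund (68.2) and Egr1 (50.2) overlapped at the top, and Junb (10.8) and Fos (7.77) had moved above Egr2 and Egr3. Jun (5.94), Fosl1 (5.15), Egr2 (4.19) and Fosl2 (3.49) each overlapped the next, and Egr3 (1.60) and Fosb (0.363) came last. In spermatocytes Jun (3.55 FPKM) led, followed by Junb (1.59), Jund (1.48), Fos (1.04) and Egr1 (0.996), and every gene overlapped the next.

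Spermatocytes held far less of most of these RNAs than SSCs. With the libraries at 5 and 7 months as the 2 samples of a genotype, 8 of the 9 genes tested were called lower than in SSCs in WT, where 59.7% of all 13247 genes were, and 7 of 9 in KO, where 59.6% were (limma, adjusted p under 0.01). Egr2, Egr3, Fosl1 and Fosl2 were below 1 FPKM in all 4 spermatocyte libraries, and Fos and Egr1 in both WT ones, so the former passed the filter only through the cultured cells where they are high, and nothing is read from the counts. Fosb, which the filter left out, was at 0.417 to 0.641 FPKM in SSCs and 0.320 to 1.42 FPKM in spermatocytes. The median log2 fold change of all genes was -0.89 in WT and -0.87 in KO. That shift went to -0.22 in WT with quantile normalization, so the changes are best read against it. Cell type, culture against sorting, and library preparation cannot be told apart here.

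On the log2(FPKM + 1) scale, which understates changes of genes as low as Egr2 is in spermatocytes, the values in WT were lowest for Egr1 and Jund, the most abundant of the 10 in cultured cells. In KO they were -4.84 for Egr1, -4.80 for Egr2 and -4.71 for Jund. Egr1 was at 0.664 and 0.741 FPKM in WT spermatocytes, which is -5.50 on the log2 scale (SE 0.17, adjusted p = 1.58e-09), and Jund at 0.565 and 2.12 FPKM, a change of -5.10 (SE 0.40, adjusted p = 1.38e-06). Egr2 was at 0.0432 and 0.0462 FPKM, on 3 fragments in each WT library, which is -4.99 on the log2 scale. Log2 fold changes in WT were -3.59 for Egr3, -2.13 for Fosl2, -1.87 for Fos, -1.72 for Junb and -1.70 for Fosl1. Since Egr2, Egr3, Fosl1 and Fosl2 passed the filter only through the cultured cells, they had to be lower. Their changes are given as values, and no test is read from them. Jun was not called in either genotype (-0.52 in WT, adjusted p = 0.131, and -0.57 in KO, adjusted p = 0.102), and quantile normalization turned its direction to 0.53 and 0.46. Junb was not called in KO (-0.73, adjusted p = 0.0922). The KO library at 7 months decided both of these, since without it Jun (-1.06, adjusted p = 0.00287) and Junb (-1.37, adjusted p = 0.00151) were called lower in KO. The call of Junb in WT was lost without WT SSC replicate 1 (-1.58, adjusted p = 0.0154) or the WT spermatocyte library at 5 months (-1.33, adjusted p = 0.0150), and also with quantile normalization (-0.56, adjusted p = 0.118) and median-ratio scaling (-1.37, adjusted p = 0.0115).

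In spermatocytes 5 of the 10 genes could be tested for KO and none was called. By value alone, KO lay above WT for 8 of the 10 genes at 5 months and for 10 of 10 at 7 months, and for 8 of 10 at both ages, where 23.1% of all genes tested, and 25.7% of the 17448 symbols above 0 in at least 1 spermatocyte library, lay above WT at both. Only Fos, Jun, Junb, Jund and Egr1 passed the filter of 1 FPKM in 2 of the 4 libraries. In a limma fit with age as a block, which leaves 1 residual degree of freedom, 0 of these 5 were called at an adjusted p under 0.05, where 1.67% of all 9350 genes were. At an unadjusted p under 0.05 the 5 were higher in KO, where 3.76% of all genes were, but Fos and Egr1 had passed the filter only through the KO libraries and so had to differ, and nothing is read from that count. At a single age there is 1 library per genotype and no test.

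Junb showed the largest difference of the 5. It was at 0.496 FPKM in WT and 1.63 FPKM in KO at 5 months, and at 1.55 FPKM in WT and 5.36 FPKM in KO at 7 months, which rested on 20, 74, 59 and 197 fragments. KO was thus 3.28 times WT at 5 months and 3.45 times WT at 7 months, while the WT value at 7 months was close to the KO value at 5 months. The log2 fold change was 1.06 (SE 0.16), and its adjusted p of 0.05001 lay just outside the threshold. Fos was at 0.726 and 1.36 FPKM at 5 months and 0.681 and 3.10 FPKM at 7 months in WT and KO, a log2 difference of 0.87 (SE 0.22, adjusted p = 0.163). For Egr1, at 0.664 and 1.25 FPKM and then 0.741 and 2.43 FPKM, it was 0.71 (SE 0.17, adjusted p = 0.142). These values of Fos and Egr1 carry the limit of the filter given above.

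Jun was at 2.29 FPKM in WT and 2.79 FPKM in KO at 5 months and at 4.32 and 6.49 FPKM at 7 months, a log2 difference of 0.35 (SE 0.12, adjusted p = 0.325). Jund was at 0.565 and 0.844 FPKM and then at 2.12 and 3.51 FPKM, a log2 difference of 0.39 (SE 0.13, adjusted p = 0.336). For both genes the 7-month libraries lay above the 5-month libraries in either genotype. The 5 genes left out of the fit were low throughout. Fosb was at 0.320, 0.578, 0.403 and 1.42 FPKM in the order WT and KO at 5 months and WT and KO at 7 months. Egr2 was at 0.0432, 0.128, 0.0462 and 0.364 FPKM, Fosl2 at 0.0898, 0.123, 0.0671 and 0.275 FPKM, and Fosl1 at 0.353, 0.337, 0.546 and 0.828 FPKM. Egr3 (0.307, 0.181, 0.287 and 0.555 FPKM) rested on 6 to 15 fragments, and its exact Poisson intervals, which cover counting error only, overlapped between all 4 libraries. Those of Fosl1, on 13 to 28 fragments, overlapped too. All 10 genes were highest in the KO library at 7 months, where 29.5% of the 17448 symbols were.

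Markers of other cells moved in the same libraries. The 5 of 6 Sertoli cell markers found in the files summed to 15.0 FPKM in WT and 40.8 FPKM in KO at 5 months, and to 21.6 and 104 FPKM at 7 months, so that the KO library at 7 months was again the highest. Clu made up most of that sum, at 12.9, 35.8, 20.0 and 93.0 FPKM, while Fshr was at 0 in the WT library at 7 months and Sox9 ranged from 0.140 to 0.683 FPKM. The 6 spermatid markers summed to 504 and 455 FPKM in WT and to 208 and 240 FPKM in KO, with none at 0. Macrophage markers summed to 0.155 to 0.476 FPKM with C1qa at 0 in all 4 libraries, and the 7 fibroblast markers to 1.51 to 2.52 FPKM with Dcn at 0 in all 4. The 5 heat shock and stress genes summed to 113 and 122 FPKM in WT and to 111 and 123 FPKM in KO, of which Dnajb1 made up 95.9 to 107 FPKM. Hspb1 of that list was at 0.0627 and 1.39 FPKM at 5 months and 1.60 and 4.11 FPKM at 7 months in WT and KO. Of the 3 genes tested, 1, Hspb1, was called higher in KO (log2 difference 1.07, limma, adjusted p = 0.0382), where 1.67% of all genes were called in either direction. Only 1 of the 3, again Hspb1, had a log2 fold change above 0, and the median of the 3 was -0.03. The part of Sertoli cell, spermatid and stress gene RNA in the genotype differences was not tested.

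**Figure D4:**
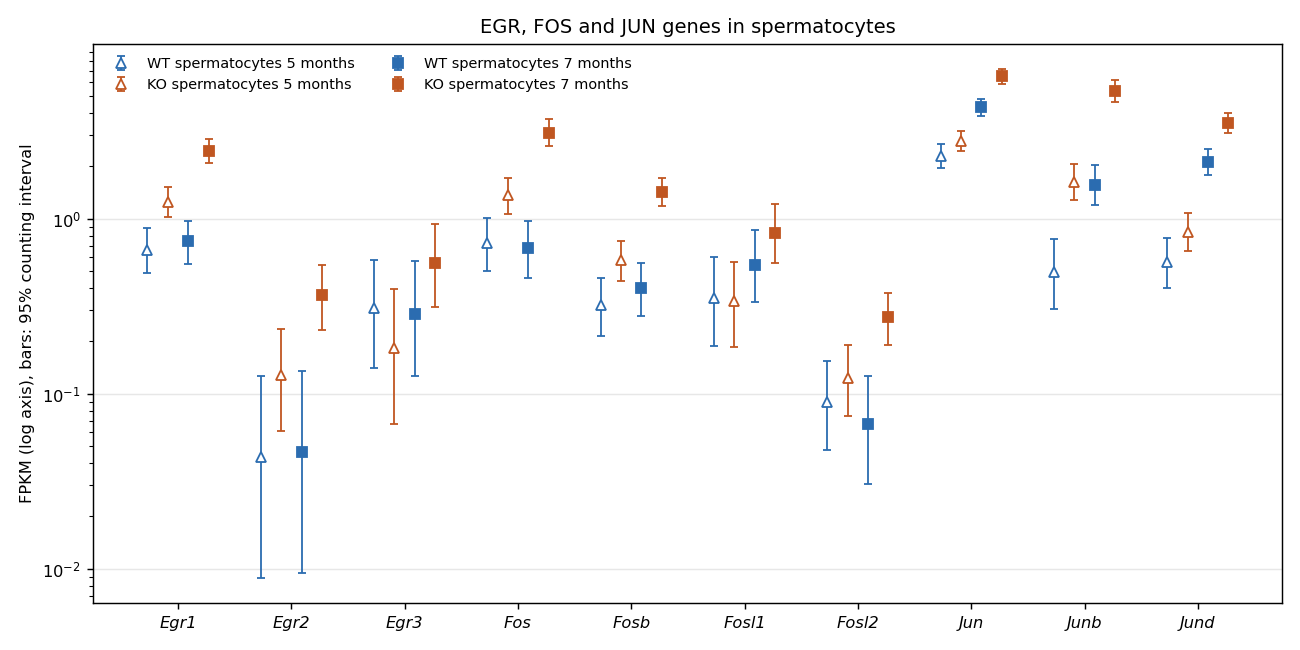
FPKM (log axis) of the 10 genes in the 4 spermatocyte libraries, WT in blue and KO in orange, open triangles at 5 months and filled squares at 7 months, with 95% exact Poisson intervals of the fragments behind each value, which cover counting error only. The KO library at 7 months is the highest for all 10 genes, and the intervals of the 4 libraries overlap for Egr3 and Fosl1.

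**Figure D5:**
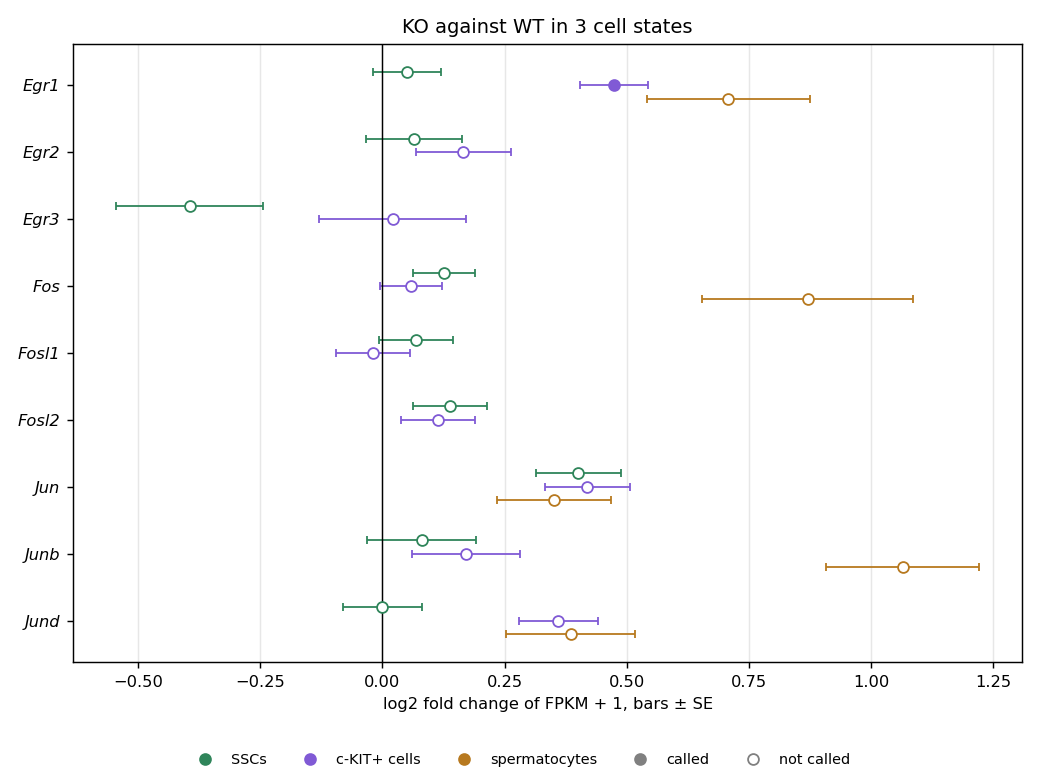
Log2 fold change (FPKM + 1) of KO against WT in SSCs, c-KIT+ cells and spermatocytes, with bars of 1 SE and filled points for called genes, where spermatocyte values exist for 5 genes. Jun lies at 0.40, 0.42 and 0.35, Junb reaches 1.06 in spermatocytes, and Egr1 in c-KIT+ cells (0.47) is the only filled point.

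Other immediate-early genes were followed as a list of 24, of which 20 were tested in SSCs and c-KIT+ cells. With RA in WT, 11 were called lower, 4 higher and 5 were not called, where 15.9% of all genes were lower and 24.9% higher, and the median log2 fold change was -0.48 beside 0.08 over all genes. In KO 10 were called lower and 3 higher, with a median of -0.32. Egr4, the remaining EGR gene, went from 55.1 to 22.0 FPKM (means of 2) in WT, a log2 change of -1.27 (SE 0.12, adjusted p = 4.27e-05). The pseudokinase gene Trib1 fell by 1.14 on the log2 scale, and Dusp1, whose phosphatase switches MAP kinases off, fell by 0.96. Gadd45b, a stress gene, rose by 0.98 (SE 0.09, adjusted p = 4.93e-05). In the KO the largest changes of the list were those of Egr4 (-1.22), Trib1 (-1.21), Gadd45b (0.96) and Btg2 (-0.94), an antiproliferative gene. Between KO and WT none of the 20 was called in SSCs or in c-KIT+ cells (limma), and 8 of 20 in each had an unadjusted p under 0.05, beside 28.3% and 22.8% of all genes. Arc and Mcl1 have the highest mean FPKM of the list over all groups, spermatocytes included. Arc had a log2 fold change of 0.30 in SSCs (adjusted p = 0.0187) and 0.29 in c-KIT+ cells (0.0336), while Mcl1 had 0.03 and -0.01. In spermatocytes 1 of 10 tested genes was called, Ier2, at 0.437 and 1.49 FPKM at 5 months and 0.625 and 2.51 FPKM at 7 months in WT and KO (log2 fold change 0.95, SE 0.14, adjusted p = 0.0495), just inside the threshold. Ier2 reached 1 FPKM only in the KO libraries and so passed the filter through them, and nothing is read from its call. Between spermatocytes and SSCs in WT, 18 of the 20 were called lower and 1 higher, where 59.7% of all 13247 genes were called lower. Trib1, Dusp1 and Btg2 were below 1 FPKM in every spermatocyte library. They passed the filter only through the cultured cells, and nothing is read from this count.

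Leucine zipper partners of FOS and JUN, a list of 22 with 18 tested, were called lower in 8 cases and higher in 3 with RA in both genotypes, with medians of -0.05 in WT and -0.10 in KO, where 24.9% of all genes were called higher and 15.9% lower in WT. Batf, which pairs with JUN proteins in lymphocytes, went from 12.1 to 2.66 FPKM in WT (log2 fold change -1.84, SE 0.12, adjusted p = 6.19e-06) and changed by -1.48 in KO. Jdp2, a repressor that also pairs with JUN, changed by -1.29 in WT and -1.52 in KO. Batf3 fell in both (-0.61 and -0.65), whereas Atf5 rose by 0.61 in WT and Ddit3, a gene of the integrated stress response, fell by 0.53 in KO. Group means moved the same way in the other genotype, from 3.11 to 4.56 FPKM for Atf5 in KO. For Ddit3 in WT they went from 13.4 to 9.79 FPKM. Mafk, which encodes a small MAF protein, was the only 1 of the 18 called for KO in SSCs (log2 fold change -0.30, SE 0.05, adjusted p = 0.00732). Of all genes tested, 4.9% were called there, so the count is near that share.

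Of the upstream factors and kinases, 24 of 25 were tested, and with RA in WT 5 were called higher, 5 lower and 14 were not called, close to the 24.9% and 15.9% of all genes. Srf went from 24.1 to 12.4 FPKM in WT, a log2 change of -0.91 (SE 0.06, adjusted p = 9.2e-06), and changed by -0.97 in KO. Map2k4, a kinase of the JNK pathway that phosphorylates JUN, went from 17.2 to 5.05 FPKM (-1.59, SE 0.05, adjusted p = 2.52e-07). Rps6ka5, which encodes the kinase MSK1, rose by 0.69 in WT and 0.76 in KO, Rps6ka3 by 0.46 in WT and Mapk3, which encodes ERK1, by 0.52 in KO. Group means rose in the other genotype too, from 24.3 to 34.0 FPKM for Rps6ka3 in KO and from 33.0 to 43.9 FPKM for Mapk3 in WT. None of the 24 was called for KO in SSCs or in c-KIT+ cells (limma), where 7 and 5 had an unadjusted p under 0.05, beside 28.3% and 22.8% of all genes.

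Regulators of EGR and AP-1 products and of their RNAs were a list of 13, of which 4 were called lower and 3 higher with RA in WT, beside 15.9% and 24.9% of all genes. Nab1, a corepressor of EGR proteins, went from 5.90 to 3.21 FPKM (log2 fold change -0.71, SE 0.07, adjusted p = 8.21e-05). The RNA decay factors Zfp36l1 (-0.90), Zfp36l2 (-0.88) and Zfp36 (-0.53), which bind AU-rich elements, were the other 3 called lower. Zfp36 is also on the list of other immediate-early genes, and a few other genes are shared between the lists, so the list counts are not independent. For KO none of the 13 was called in SSCs, in c-KIT+ cells or, of 9 tested, in spermatocytes (limma), where 3, 1 and 1 had an unadjusted p under 0.05, beside 28.3%, 22.8% and 11.7% of all genes.

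Likeness of pattern was measured as Pearson's r of log2(FPKM + 1) over the 12 libraries, as a description, among 13247 genes. The libraries fall into 3 cell states, which most of each r reflects. Fosl1, Fosl2, Jund and Egr1 followed the split of cultured cells against spermatocytes, with 4893 to 5370 genes above r = 0.95. Egr2 was most like Phlda1 (r = 0.998), B3gnt1 and Serinc5, with 424 genes above 0.95. Phlda1 was at 22.2 to 30.0 FPKM in SSCs and 2.85 to 4.24 FPKM in c-KIT+ cells. Egr3 was most like Tmem44 (0.992), Foxf1a and Nanos3, with 144 genes above 0.95. Fos was most like Tnik (0.989), St3gal4 and Soat1 and Junb most like Ncstn (0.974), Pvrl2 and Nenf. For Jun (Clcn2, 0.948, Espn and Gpr56) and Fosb (Qpct, 0.888, Cxcl1 and Cldn26) no gene reached 0.95. Fosl1 was most like Smcr7, Lamb2 and Egln1, Fosl2 most like Cmtm6, Lamc1 and Tgif2, and Egr1 most like Cdr2l, Epb4.1l3 and Tcfe3. The 3 genes most like Jund were Mgrn1, Axin1 and Nab2, the other corepressor of EGR proteins. Among the members, Egr2 and Egr3 had r = 0.97, Fos and Junb 0.96, and Egr1 and Fosl2 1.00 when rounded.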

How the data were processed

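Per the submitters' notes the reads were mapped to mm9 (TopHat2 2.0.6), FPKM came from Cufflinks 2.0.2, and the study's own group comparisons used Cuffdiff. The deposited FPKM, 1 value per gene symbol in each of 12 libraries, were used as the authors gave them. Of 23021 entries, 728 with repeated symbols were left out. The annotation and the use of strand are not given in the sources used here, so antisense transcripts cannot be told apart.

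FPKM hold no counts. Fragment numbers were recovered from the deposited confidence limits of the WT spermatocyte library at 5 months (78.5% of 5762 low genes came out whole within 0.02 of a fragment). The spacing of low FPKM gave approximate fragments elsewhere (within 0.1 of whole for 75.2% to 100% of low genes), with 95% exact Poisson intervals that cover counting error only.

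Tests used limma 3.58.1 in R 4.3.3 on log2(FPKM + 1), a scale that understates changes of low genes, with p-values moderated along a variance trend and adjusted across every gene tested (Benjamini-Hochberg). Genes needed 1 FPKM in 2 libraries of the fit. The 8 cultured libraries had 1 mean per group (4 residual degrees of freedom), the 4 spermatocyte libraries an age block, and all 12 libraries 6 groups. In simulated data, 1.5-fold and 2-fold changes were recovered in 68% and 88% of genes (RA in WT), 87% and 96% (KO, SSCs) and 44% and 86% (interaction). For spermatocytes against SSCs in WT the values were 31% and 62%, and for KO in spermatocytes 0% and 0%. The simulated spread in spermatocytes held the age difference, which the fit to the data takes out, so 0% is not the recovery of that fit. Changes were placed only in genes above a mean level that no member reached in spermatocytes. Jun, Egr3 and the FOS genes missed that level in culture too.

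Alternatives tried were another pseudocount (0.1), dropping the filter or raising it to 5 FPKM, scaling by equal totals, quantiles or median ratios, other thresholds, a fit without the variance trend, with a replicate block or with the compared groups alone, a 12-library fit for spermatocytes, and leaving out each library in turn.

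The 10 members and all lists were chosen with earlier results of these data known. Members are named with values, and Zmym3 as a check of the labels. From each list, up to 4 called genes with the largest change in a comparison could be named, or the 2 most abundant where none was called, and of these the RA and KO comparisons are described. For each member the 3 genes most like it are named. Clu, Fshr, Sox9, C1qa, Dcn, Dnajb1 and Hspb1 were picked from the marker lists after their values were seen. Promoters are RefSeq sequences of GRCm38.p6. Tables, the motif search and exact permutation tests were made in Python 3.11.15 with scipy 1.17.1 and pandas 2.3.3.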

Additional observations from a re-analysis of the deposited data

How the results depend on the processing

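Members called in the RA comparisons kept their direction under every alternative run, and so did those called between spermatocytes and SSCs, except Fos in KO (0.013 with quantile normalization, and -0.68, adjusted p = 0.018, with median-ratio scaling). For KO in SSCs, 1 member (Jun) was called at an adjusted p under 0.05 and with an equal total. For KO in c-KIT+ cells, 3 (Egr1, Jun and Jund) were called under those alternatives, 0 with no filter, no variance trend, a replicate block or only the compared groups, and 0 to 1 without 1 library. For KO in spermatocytes, 1 (Junb) was called with quantile normalization (adjusted p = 0.0285) and with median-ratio scaling (adjusted p = 0.0353), and leaving out a library left no residual degrees of freedom. The cause was not tested.

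Replicate numbers gave no clear pairing, since the differences between replicates 1 and 2 correlated between groups with r from -0.141 to 0.190. The highest values were those of SSCs with c-KIT+ cells of the same genotype (0.151 in WT and 0.190 in KO). With the replicate block, 6 members were called for RA in WT, 5 for RA in KO (Fosl1 lost, adjusted p = 0.01005), 0 for KO in SSCs, 0 for KO in c-KIT+ cells and 0 for the interaction. No paired analysis was possible for spermatocytes beyond the age block because each genotype and age has 1 library.

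Values that changed sign belong to uncalled members, apart from Fos above. With an equal total Jun was at 0.017 for RA in WT and -0.055 for the interaction, and Jund at 0.075 for KO in SSCs. With median-ratio scaling Jund was at -0.019 for RA in KO. With quantile normalization Jund was at 0.00081 for KO in SSCs, Fosl2 at 0.0024 for the interaction, and, for spermatocytes against SSCs, Jun at 0.53 in WT and 0.46 in KO and Junb at 0.36 in KO. Without 1 library, Jun ranged from -0.16 to 0.066 for RA in WT and Jund from -0.0069 to 0.10 for RA in KO. For KO in SSCs the ranges were -0.024 to 0.12 (Egr1), -0.033 to 0.16 (Egr2), -0.014 to 0.15 (Fosl1), -0.055 to 0.22 (Junb) and -0.13 to 0.12 (Jund). For KO in c-KIT+ cells they were -0.18 to 0.22 (Egr3) and -0.044 to 0.0064 (Fosl1), and for the interaction -0.014 to 0.22 (Egr2), -0.10 to 0.051 (Fosl2), -0.097 to 0.13 (Jun) and -0.044 to 0.23 (Junb).

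Over all genes, 587 were called for KO in SSCs, against 1530 at an adjusted p under 0.05, 275 with no filter, 388 with a filter at 5 FPKM, 346 with only the compared groups and 117 to 550 without 1 library. For KO in c-KIT+ cells 324 were called, against 900, 140, 235, 129 and 78 to 282, and 213 with a replicate block. For KO in spermatocytes 156 were called, against 3 at an adjusted p under 0.01, 36 with a pseudocount of 0.1, 0 with no filter or no variance trend, 90 with a filter at 5 FPKM, 37 with an equal total, 254 with quantile normalization and 235 with median-ratio scaling. Without 1 library, 3129 to 5004 were called for RA in WT, against 4882. The split of higher and lower calls was 2982 and 1900 for RA in WT, against 3734 and 1451 with an equal total and 2480 and 2584 with median-ratio scaling, and 2942 and 1912 for RA in KO, against 2479 and 2534 with median-ratio scaling. For KO in SSCs it was 253 and 334, against 492 and 269 with an equal total, and for spermatocytes against SSCs in WT 3461 and 7915, against 4796 and 5993 with quantile normalization.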
